A study of Mus musculus with 28 samples.

Results

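Liver mRNA of 10 genes of the NRF2 pathway and of antioxidant defence was compared between mice given vehicle, OCA, or INT-787. The genes were chosen by name, namely Nfe2l2, Keap1, Nqo1, Hmox1, Gclc, Gclm, Txnrd1, Srxn1, Cat, and Sod1, and each matched 1 of the 21935 Ensembl genes in the table of counts. Earlier results of these data were known when the 10 genes were chosen. All 10 passed the filter on low counts, which left 12580 genes for testing. The mice were male Lep ob/ob (B6.V-Lepob/JRj), which lack leptin and become obese. They were obtained at 5 weeks of age and kept for 14 weeks on the AMLN diet, which is high in cholesterol, fructose, and fat, so the controls carried the same mutation and the same diet-induced fatty liver disease. Oral treatment once daily for 2 weeks followed, with carboxymethylcellulose vehicle in 10 mice and with OCA or INT-787, both at 30 mg/kg, in 9 mice each. The diet was continued during treatment. OCA (obeticholic acid) is a synthetic bile acid that activates the nuclear bile acid receptor FXR, and INT-787 is a derivative of OCA that carries an added hydroxyl group. No lean or untreated mice were among the 28 samples, so what the diet and the mutation did to these genes was not measured.

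NRF2, the product of Nfe2l2, is a transcription factor that KEAP1 holds in the cytoplasm and delivers for degradation. Oxidants and electrophiles modify KEAP1, NRF2 then escapes and binds antioxidant response elements together with a small MAF protein, and genes of glutathione synthesis, the thioredoxin system, and quinone and haem breakdown are transcribed. Much of this control acts on protein, which mRNA levels do not report. Catalase and superoxide dismutase 1 remove hydrogen peroxide and superoxide at a high basal level in liver, and are less tied to NRF2.

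The DNA before the start sites was examined first, because NRF2 acts on its targets through short DNA elements. RefSeq promoter windows (GRCm38.p6, 250 bases before to 50 bases after a start site) were at hand for 8 of the 10 genes, in 10 windows, and not for Gclc and Hmox1. The windows were searched on both strands for the core of the antioxidant response element, TGACNNNGC, and for TGAGTCAGC, the related NF-E2 type letters that contain an AP-1 site. The core occurred in 12.4% of all 32851 mouse windows, TGAGTCAGC in 0.414%, and either of them in 12.7%, or in 14.3% of 27025 genes when all windows of a gene were joined. Among the 8, 5 genes had a match, namely Gclm, Nfe2l2, Sod1, Srxn1, and Txnrd1. The 250 bases before the start are shown for the 3 genes with a window that passed the test against vehicle below, with matches in capitals and in the direction of transcription.
Gclm, chr3:122245307-122245556, plus strand: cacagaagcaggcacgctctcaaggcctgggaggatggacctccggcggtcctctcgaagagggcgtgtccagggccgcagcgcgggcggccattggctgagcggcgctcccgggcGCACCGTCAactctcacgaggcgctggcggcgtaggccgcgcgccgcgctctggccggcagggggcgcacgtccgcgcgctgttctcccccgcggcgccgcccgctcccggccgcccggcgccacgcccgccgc
Srxn1, chr2:152105274-152105523, plus strand: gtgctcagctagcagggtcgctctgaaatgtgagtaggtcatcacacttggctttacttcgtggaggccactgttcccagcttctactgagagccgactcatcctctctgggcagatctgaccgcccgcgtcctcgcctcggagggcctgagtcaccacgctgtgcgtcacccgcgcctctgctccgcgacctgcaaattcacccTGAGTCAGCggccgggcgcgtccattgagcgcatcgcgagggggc
Nqo1, chr8:107403206-107403455, minus strand: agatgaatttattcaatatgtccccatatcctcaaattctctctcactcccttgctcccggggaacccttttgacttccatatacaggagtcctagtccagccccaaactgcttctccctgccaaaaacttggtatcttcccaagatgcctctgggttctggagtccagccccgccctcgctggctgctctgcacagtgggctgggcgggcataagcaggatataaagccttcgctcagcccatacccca
In Gclm the core lay on the opposite strand, starting at base -134 from the start site. In Srxn1 TGAGTCAGC began at -45, and a core on the opposite strand began at +29, after the stretch shown. The Nqo1 window held neither set of letters, which says nothing of sites elsewhere.

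The sites of the other 3 genes with a match are shown with 10 bases on each side, so that their letters can be compared.
Nfe2l2, chr2:75704885-75704913, minus strand, core starting at -240: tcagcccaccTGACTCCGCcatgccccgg
Sod1, chr16:90220696-90220724, plus strand, opposite-strand core starting at -56: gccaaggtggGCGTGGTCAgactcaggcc
Txnrd1, chr10:82859104-82859132, plus strand, opposite-strand core starting at -92: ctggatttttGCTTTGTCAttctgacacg
The genes with a match included one that rose, one that fell, and 3 that did not pass the test with either drug. A match is a description of letters, and binding was not measured.

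Library totals lay between 1009593 and 22421506 counts (median 14864947). The lowest was that of vehicle replicate 6, in which Nqo1, the least abundant of the 10 genes, had 21 counts. In vehicle replicate 5, genes that share exons with an expressed gene of the other strand had a median ratio to that gene of 0.529, against 0.0356 to 0.0772 in the other 27 mice (110 gene pairs). Keap1 and Gclm overlap exons of other annotated genes on the opposite strand by 510 and 296 bases, and Gclm also overlaps another on its own strand by 244 bases, whereas the other 8 genes overlap none. Each count of changed genes was also computed without both mice. In keeping with the label liver, 7 hepatocyte markers had summed levels from 73726 to 210250 CPM. Counts are from separate mice, and levels are given as CPM, each gene's counts scaled to the TMM-adjusted library total.

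Per kilobase of annotated exon the 10 mRNAs spanned from 763 to 12.3 CPM per kb in vehicle mice. Cat stood first, at 763 CPM per kb (566 to 981 over mice), and overlapped no other gene. Sod1 followed at 226 (137 to 322) and Gclc at 108 (56.4 to 163), and these neighbours overlapped. Srxn1 at 48.0 and Gclm at 43.5 overlapped each other and lay below every value of Gclc. Nfe2l2 at 24.04, Hmox1 at 21.5, and Txnrd1 at 18.3 CPM per kb formed a run of overlapping neighbours, and Keap1 at 12.6 and Nqo1 at 12.3 overlapped at the lower end. The mRNA of the regulator Nfe2l2 was thus nearer to that of its partner Keap1 than to the scavenger enzymes. These values divide by all annotated exons of a gene (3970 bases for Sod1), so a gene read mostly as a short transcript is placed too low.

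**Figure D1:**
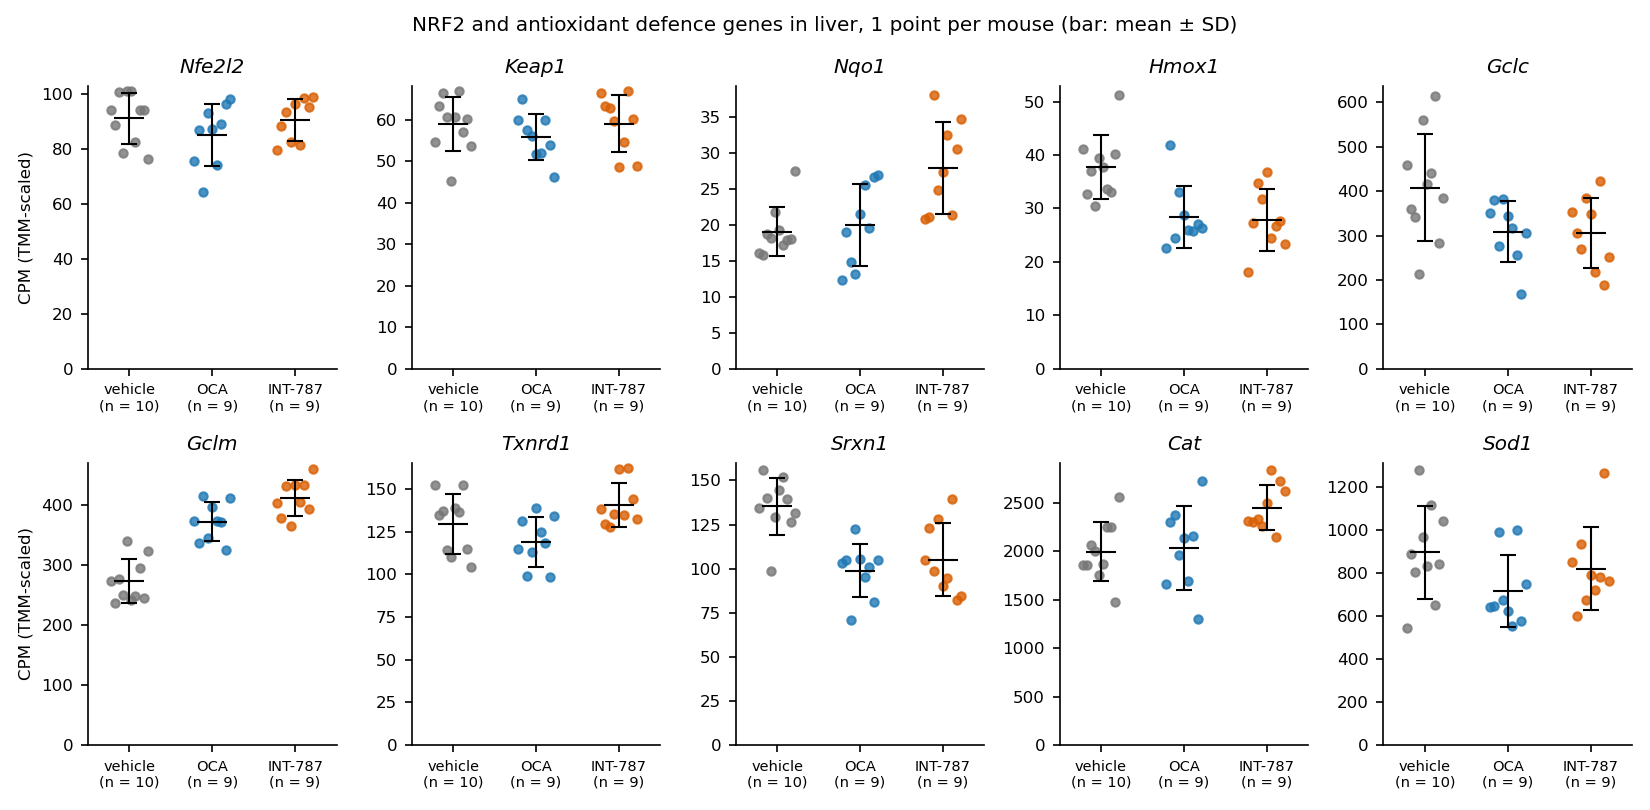
Level of each gene in each mouse in CPM (vertical axes, each from 0), by group, with 1 point per mouse and bars for mean ± SD. Gclm is higher in all 9 INT-787 mice than in any vehicle mouse, Hmox1 and Srxn1 lie lower with both drugs, and Nfe2l2 and Keap1 overlap across the groups.

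INT-787 changed 4 of the 10 genes against vehicle (edgeR's quasi-likelihood test, Benjamini-Hochberg adjusted p of at most 0.05 over all 12580 genes), with Gclm and Nqo1 higher and Hmox1 and Srxn1 lower. The background was 19.6% of all tested genes, 10.2% higher and 9.48% lower. The 4 of 10 was above that share, on a small list chosen with earlier results of these data known. OCA changed 3 of the 10, with Gclm higher and Hmox1 and Srxn1 lower, where 6.6% of all genes were called, 4.15% higher and 2.45% lower. None of the 10 passed in the direct comparison of INT-787 with OCA, in which 5.38% of all genes were called, 2.19% higher and 3.19% lower with INT-787. In that comparison 3 genes (Nqo1, Txnrd1, and Cat) had an unadjusted p under 0.05, and DESeq2 called 2 of them (Nqo1 and Txnrd1). The median log2 fold change of the 10 was -0.0015 with INT-787 and -0.11 with OCA, and between the drugs it was 0.12, against -0.0010, 0.018, and -0.0065 over all tested genes. Both drugs were compared with the same vehicle mice, so the values with INT-787 and OCA are not independent of each other. With upper-quartile normalization 37.5% of all calls with INT-787 were rises in place of 51.7%, 52.3% in place of 62.9% with OCA, and 32.2% in place of 40.8% between the drugs. The 4 calls with INT-787 and 3 with OCA kept their direction under that scaling.

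**Figure D2:**
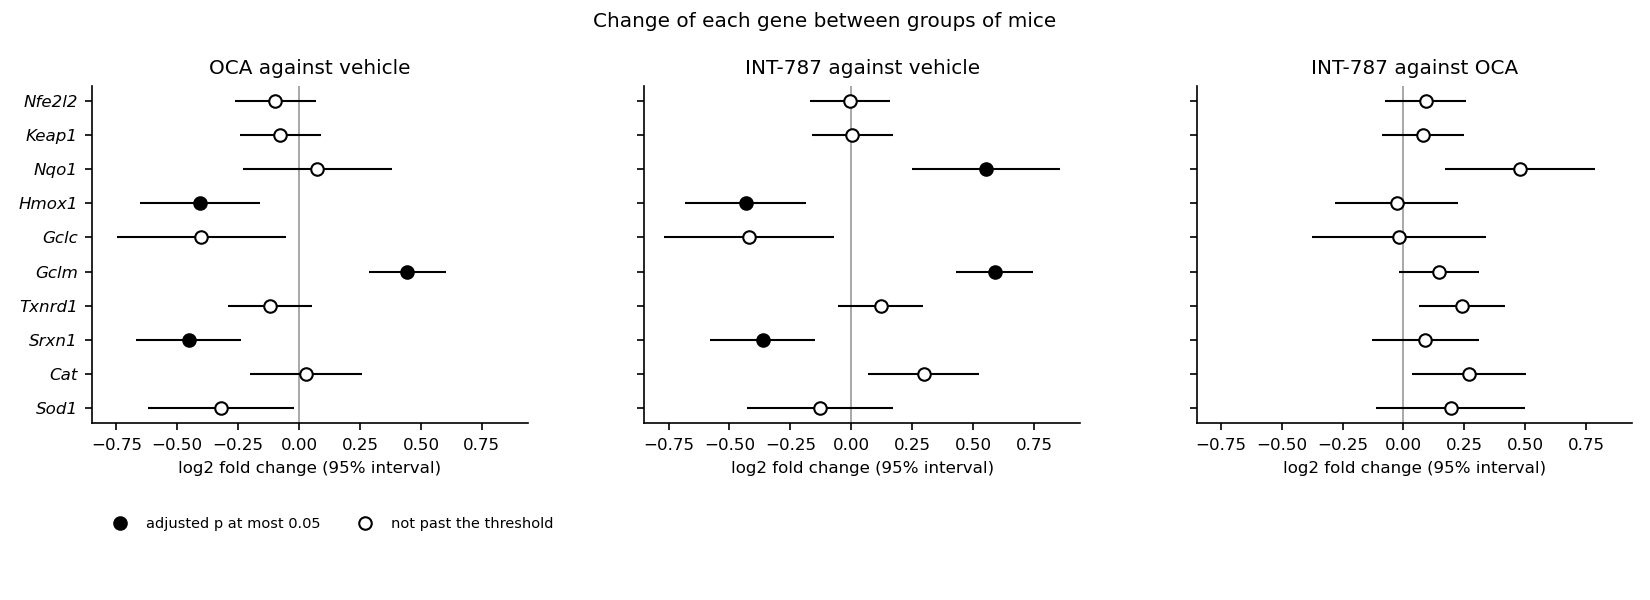
Log2 fold change of each gene (horizontal axes, points) with its 95% interval (lines) for OCA against vehicle, INT-787 against vehicle, and INT-787 against OCA. Filled points passed the adjusted p of 0.05: Gclm, Nqo1, Hmox1, and Srxn1 with INT-787, Gclm, Hmox1, and Srxn1 with OCA, and none between the drugs.

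The mRNAs of the regulators did not pass the test in any comparison. Nfe2l2 (ENSMUSG00000015839, chr2:75675513-75704641) measured 76.6 to 101 CPM in vehicle mice (median 94.2), 64.5 to 98.2 in OCA mice (median 87.4), and 79.9 to 99.1 in INT-787 mice (median 93.4). The groups overlapped, with 3 of 9 OCA mice below the lowest vehicle mouse. Its log2 fold change against vehicle was -0.0063 with INT-787 (95% interval -0.17 to 0.16, adjusted p = 0.97) and -0.097 with OCA (-0.26 to 0.067, adjusted p = 0.58). Keap1 (ENSMUSG00000003308, chr9:21229730-21239361), the gene of the NRF2 inhibitor, measured 45.3 to 67.1 CPM in vehicle mice (median 60.4), 46.3 to 65.0 in OCA mice (median 55.98), and 48.6 to 66.9 in INT-787 mice (median 60.2). Its lowest vehicle value came from replicate 5. Keap1 differed from vehicle by 0.0034 on the log2 scale with INT-787 (-0.16 to 0.17, adjusted p = 0.99) and by -0.078 with OCA (-0.24 to 0.089, adjusted p = 0.69). Between the drugs the difference was 0.091 for Nfe2l2 (-0.077 to 0.26) and 0.081 for Keap1 (-0.088 to 0.25), so a difference of more than 0.26 on the log2 scale lies outside both intervals.

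Glutamate-cysteine ligase, the first enzyme of glutathione synthesis, rose with both drugs in the mRNA of its modifier subunit. Gclm (ENSMUSG00000028124, chr3:122245557-122270732) measured 237 to 341 CPM in vehicle mice (median 262), 326 to 416 in OCA mice (median 374), and 366 to 461 in INT-787 mice (median 406). All 9 INT-787 mice and 7 of 9 OCA mice stood above the highest vehicle mouse, which was replicate 5. Gclm rose 1.504-fold with INT-787 (log2 fold change 0.59 ± 0.077 SE, adjusted p = 9.0e-07) and 1.36-fold with OCA (0.44 ± 0.077 SE, adjusted p = 0.00021). Over 28 fits that each left out 1 mouse, including replicate 5, the log2 fold change stayed between 0.57 and 0.63 with INT-787 and between 0.42 and 0.48 with OCA. The difference between the drugs was 0.15 (95% interval -0.017 to 0.31, adjusted p = 0.33).

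Gclc (ENSMUSG00000032350, chr9:77754535-77794485), the catalytic subunit, lay on the other side of 0 and did not pass the test. It measured 212 to 615 CPM in vehicle mice (median 400.1), 168 to 383 in OCA mice (median 317), and 189 to 422 in INT-787 mice (median 307), with wide overlap. The log2 fold change was -0.42 with INT-787 (95% interval -0.77 to -0.071, adjusted p = 0.079) and -0.40 with OCA (-0.75 to -0.052, adjusted p = 0.18). Both calls turned when the 11 sets of neighbouring mouse numbers in the labels entered the model. Gclc then passed with INT-787 (-0.50, adjusted p = 0.0026) and with OCA (-0.45, adjusted p = 0.020). Vehicle replicate 4, with the lowest vehicle value (212 CPM), was the only mouse of its set, so that fit gave it no weight in the comparisons. With INT-787 Gclc also passed with upper-quartile normalization (-0.48, adjusted p = 0.042). It did so too without vehicle replicate 4 (-0.49, adjusted p = 0.027) and without INT-787 replicate 7 (-0.49, adjusted p = 0.046). What the number sets stand for is not given in the sources used here.

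The pair of subunits was therefore set side by side per mouse, a description chosen after the values of both were seen. The ratio of Gclm to Gclc per kilobase of exon ranged from 0.288 to 0.706 in vehicle mice (median 0.379), from 0.531 to 1.16 in OCA mice (median 0.705), and from 0.570 to 1.24 in INT-787 mice (median 0.746). It exceeded the highest vehicle value in 4 of 9 OCA and 6 of 9 INT-787 mice. Gclm mRNA exceeded Gclc mRNA per kilobase in 1 OCA and 3 INT-787 mice and in 0 of 10 vehicle mice. Within groups the 2 subunits were only loosely related (Pearson's r = 0.31 over 28 mice, permutation p = 0.14, adjusted over 45 pairs of genes 0.38, and Spearman's rho 0.20).

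**Figure D3:**
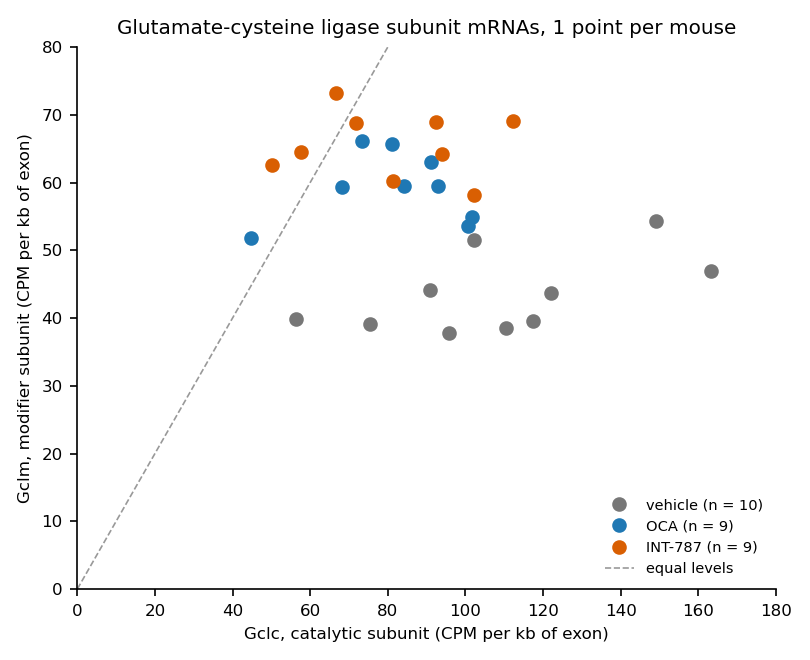
Gclm against Gclc in each mouse, both in CPM per kb of exon, with 1 point per mouse and a dashed line at equal levels. The points of OCA and INT-787 mice lie above and to the left of most vehicle points, and 4 treated mice lie above the line.

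Of the thioredoxin branch, Srxn1 fell with both drugs and Txnrd1 did not pass. Srxn1 (ENSMUSG00000032802, chr2:152105516-152111376) encodes sulfiredoxin, which returns overoxidized peroxiredoxins to use. It measured 98.8 to 156 CPM in vehicle mice (median 137), 70.9 to 122 in OCA mice (median 103), and 82.2 to 139 in INT-787 mice (median 98.8). All 9 OCA mice and 8 of 9 INT-787 mice lay below the vehicle median, and the groups overlapped, vehicle replicate 4 being far below the other vehicle mice. Srxn1 fell by 0.45 on the log2 scale with OCA (SE 0.11, adjusted p = 0.0052) and by 0.36 with INT-787 (SE 0.10, adjusted p = 0.013). The drugs differed by 0.090 (95% interval -0.13 to 0.31, adjusted p = 0.74).

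Txnrd1 (ENSMUSG00000020250, chr10:82833951-82897712) encodes cytosolic thioredoxin reductase, which keeps thioredoxin reduced. Its levels were 104 to 153 CPM with vehicle (median 136), 98.3 to 139 with OCA (median 118), and 128 to 162 with INT-787 (median 135). The log2 fold change against vehicle was 0.12 with INT-787 (adjusted p = 0.34) and -0.12 with OCA (adjusted p = 0.50). All 9 INT-787 mice exceeded the OCA median, and the drugs differed by 0.24 (95% interval 0.063 to 0.42, unadjusted p = 0.0087, adjusted p = 0.098). DESeq2 put this difference just past the threshold (0.25, adjusted p = 0.0496).

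Nqo1 had the largest difference between the drugs among the 10. Nqo1 (ENSMUSG00000003849, chr8:107388225-107403206) encodes a quinone reductase and is a standard reporter of NRF2 activity. It measured 15.9 to 27.6 CPM in vehicle mice (median 18.1), 12.4 to 26.98 in OCA mice (median 19.6), and 20.9 to 38.1 in INT-787 mice (median 27.4). All 9 INT-787 mice exceeded the medians of both other groups, 4 exceeded every vehicle mouse, and 5 exceeded every OCA mouse. Nqo1 rose 1.47-fold with INT-787 (log2 fold change 0.55 ± 0.15 SE, adjusted p = 0.0075), whereas OCA gave 0.075 (95% interval -0.23 to 0.38, adjusted p = 0.87). The difference between the drugs was 0.48 (95% interval 0.17 to 0.78, unadjusted p = 0.0030) and narrowly missed the threshold (adjusted p = 0.0538). It passed with DESeq2's size factors in edgeR (adjusted p = 0.046), with DESeq2 (0.027), with the number sets as a factor (0.016), and when any one of vehicle replicate 10, OCA replicates 6, 8, or 9, or INT-787 replicates 1, 2, or 7 was left out (adjusted p from 0.030 to 0.046).

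Hmox1 fell with both drugs. Hmox1 (ENSMUSG00000005413, chr8:75093621-75100589) encodes haem oxygenase 1, the inducible enzyme that opens the haem ring, which both stressed hepatocytes and macrophages produce. It measured 30.4 to 51.3 CPM in vehicle mice (median 37.4), 22.6 to 41.8 in OCA mice (median 26.3), and 18.2 to 36.7 in INT-787 mice (median 27.2). No INT-787 mouse and 1 of 9 OCA mice exceeded the vehicle median, and 6 INT-787 and 7 OCA mice lay below every vehicle mouse. Hmox1 fell by 0.43 on the log2 scale with INT-787 (SE 0.12, adjusted p = 0.0097) and by 0.41 with OCA (SE 0.12, adjusted p = 0.035). The drugs differed by -0.028 (95% interval -0.28 to 0.22, adjusted p = 0.95). With OCA it no longer passed without vehicle replicates 5 and 6 together (-0.40, adjusted p = 0.068) and when any one of vehicle replicates 1, 5, 9, or 10 or OCA replicates 1, 3, 5, 6, 7, or 9 was left out (adjusted p from 0.05003 to 0.074), while the call with INT-787 held in all those fits.

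Markers of other liver cells moved with some of these groups. The summed level of 8 macrophage markers had a median of 553 CPM with vehicle (443 to 669), 454 with OCA (372 to 884), and 426 with INT-787 (335 to 565), and 2 of the 8, Cd68 (-0.69) and Csf1r (-0.46), fell with INT-787 (25%, against 19.6% of all tested genes). Between the drugs Cd68 was lower (-0.61) and Marco higher (2.63, SE 0.77) with INT-787. The Marco value rested on few mice, with a median of 2.89 CPM in INT-787 mice (highest 68.2) and 1.30 in OCA mice (highest 7.77). Only 2 of 9 INT-787 mice stood above every OCA mouse for this gene. The 6 markers of lipid-associated macrophages summed to 982 CPM with vehicle (719 to 1125), 1189 with OCA (765 to 2111), and 581 with INT-787 (453 to 750), with 5 of 6 lower with INT-787 than with vehicle and 6 of 6 lower than with OCA. The 8 stellate cell and myofibroblast markers summed to 1397 (1268 to 2446), 1529 (1188 to 3375), and 832 (471 to 1098) CPM. Of these 8, 6 were lower with INT-787 than with vehicle and 4 were lower than with OCA. With OCA 0 genes of the macrophage, lipid-associated macrophage, and stellate lists passed in edgeR or DESeq2, and 1, 2, and 1 had an unadjusted p under 0.05. The 6 endothelial markers summed to 217 (153 to 314), 172 (145 to 219.5), and 190.01 (108 to 238) CPM, and 2 of them, Pecam1 (-0.33) and Cdh5 (-0.34), fell with INT-787 (3 by DESeq2), while 0 passed with OCA in edgeR or DESeq2 and 4 had an unadjusted p under 0.05 with each drug. The 5 cholangiocyte markers summed to 77.1 (57.3 to 91.0), 73.4 (47.7 to 181), and 63.4 (46.6 to 74.3) CPM, and 1 of them, Cftr, fell with INT-787 (-0.86), 20% of its list, beside the 19.6% of all tested genes called and 9.48% lower. The shares lower with INT-787 than with vehicle were 83.3% for lipid-associated macrophage, 75% for stellate, and 33.3% for endothelial markers. The shares lower with INT-787 than with OCA were 100% for lipid-associated macrophage, 50% for stellate, and 0% for endothelial and cholangiocyte markers. Over all tested genes that share was 3.19%. Of 7 hepatocyte markers 4 rose with each drug (57.1%, where 10.2% of all tested genes rose with INT-787 and 4.15% with OCA), their sum having medians of 98359, 140553, and 137721 CPM. All markers of these 6 lists were tested and none was at 0 throughout. Of 5 erythroid markers 0 passed with either drug in edgeR or DESeq2, with 0 and 1 at an unadjusted p under 0.05 for INT-787 and OCA. In whole liver, fewer cells of a type and less RNA per cell cannot be told apart, and the part of these shifts in the changes of Hmox1, Srxn1, Gclm, and Nqo1 was not tested.

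The scavenger enzymes Cat and Sod1, the most abundant of the 10 mRNAs per kilobase, did not pass. Cat (ENSMUSG00000027187, chr2:103453849-103485160) encodes the peroxisomal enzyme that splits hydrogen peroxide. It measured 1479 to 2563 CPM in vehicle mice (median 1934), 1298 to 2725 in OCA mice (median 2138), and 2150.2 to 2839 in INT-787 mice (median 2338). All 9 INT-787 mice exceeded the vehicle median. The log2 fold change was 0.30 with INT-787 (95% interval 0.068 to 0.53, adjusted p = 0.057), 0.028 with OCA (-0.20 to 0.26, adjusted p = 0.95), and 0.27 for INT-787 over OCA (0.033 to 0.50, adjusted p = 0.18). With INT-787 it passed with DESeq2 (adjusted p = 0.041), in a model of only those 2 groups (0.031), and without vehicle replicate 10 (0.027), OCA replicate 8 (0.029), or OCA replicate 9 (0.045).

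Sod1 (ENSMUSG00000022982, chr16:90220754-90226329), which encodes the cytosolic copper-zinc superoxide dismutase, measured 543 to 1278 CPM in vehicle mice (median 866), 555 to 999 in OCA mice (median 648), and 599 to 1265 in INT-787 mice (median 781). The groups overlapped over most of their range. The log2 fold change was -0.13 with INT-787 (95% interval -0.43 to 0.17, adjusted p = 0.59), -0.32 with OCA (-0.62 to -0.022, adjusted p = 0.22), and 0.19 for INT-787 over OCA (-0.11 to 0.50, adjusted p = 0.54).

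Another 117 genes of 9 related lists, also chosen with earlier results of these data known, were read beside the 10, and 116 were tested. INT-787 changed 40 of them (34.5%), 15 higher and 25 lower, OCA changed 23 (19.8%), 6 higher and 17 lower, and 16 (13.8%) differed between the drugs, 11 higher and 5 lower with INT-787. Over all tested genes the shares were 19.6%, 6.6%, and 5.38%. The medians over the 116 were -0.061, -0.11, and 0.078. In the direct comparison the count was 9 without OCA replicate 6 and 10 without OCA replicate 1.

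Of 12 NRF2 regulators besides Nfe2l2 and Keap1, 1 changed with each drug (8.33%), against 19.6% of all tested genes with INT-787 and 6.6% with OCA. This was Mafg, the gene of a small MAF partner of NRF2, which measured 24.02 to 38.0 CPM in vehicle mice (median 32.5), 39.2 to 64.0 in OCA mice (median 55.1), and 49.5 to 82.0 in INT-787 mice (median 58.8). Neither treated group overlapped vehicle. Mafg rose 1.95-fold with INT-787 (adjusted p = 3.1e-08) and 1.61-fold with OCA (adjusted p = 3.2e-05).

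The list of detoxification genes known as NRF2 targets held 8 of the 15 rises with INT-787, with 12 of 23 genes changed by INT-787 (8 higher, 4 lower), 8 by OCA (3 higher, 5 lower), and 8 between the drugs (7 higher and 1 lower with INT-787). These are 52.2%, 34.8%, and 34.8% of the list, beside 19.6%, 6.6%, and 5.38% of all tested genes. The rises were mainly glutathione S-transferases, which join glutathione to electrophiles. Gsta2 measured 16.7 to 37.0 CPM in vehicle mice (median 24.5), 30.1 to 90.9 in OCA mice (median 45.7), and 79.4 to 173 in INT-787 mice (median 108). It rose by 2.18 on the log2 scale with INT-787 (adjusted p = 6.3e-11) and by 1.06 with OCA (adjusted p = 9.0e-05), and INT-787 exceeded OCA by 1.12 (adjusted p = 0.00013). No INT-787 mouse overlapped the vehicle range of this gene.

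Gstm3 showed the same order, at 1.82 with INT-787, 0.70 with OCA, and 1.12 for one drug against the other, and Gsta4 at 1.84, 1.30, and 0.53, all past the threshold. Gstm2 (0.74 and 0.56) and Gsta3 (0.46 and 0.48) were higher with INT-787 than with vehicle and with OCA, as was Gstm1 (0.56 and 0.63). Gsta1 (0.69) and the organic anion pump Abcc2 (0.40) rose against vehicle with INT-787. Gstm4 was lower than vehicle with OCA (-0.47) and higher with INT-787 than with OCA (0.51). The transferases are near copies of each other, and how reads that match several were counted is not given in the sources used here, so the split between single copies is uncertain. The falls in this list were of the efflux pump Abcc4 (-0.84 with INT-787, -1.04 with OCA), the carbonyl reductase Cbr3 (-0.67, -0.69), the microsomal transferase Mgst1 (-0.62, -0.58), and, with INT-787, Ptgr1 (-0.68), a reductase of prostaglandins, which was also lower with INT-787 than with OCA (-0.59). With OCA Entpd5, a nucleotide hydrolase of the endoplasmic reticulum, fell as well (-0.29).

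**Figure D4:**
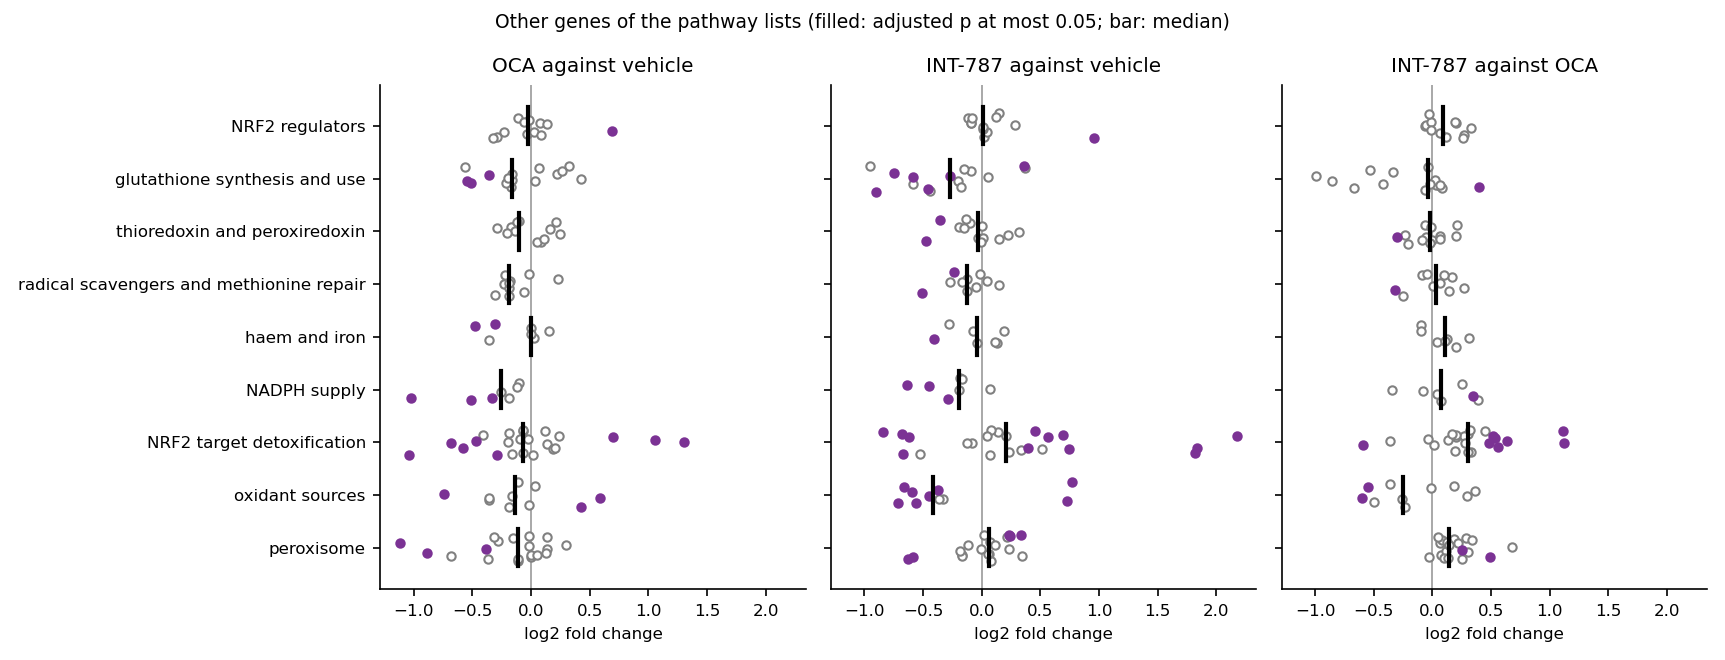
Log2 fold change (horizontal axes) of the tested genes of 9 related lists (rows), without the 10 genes, in each comparison, with filled points for an adjusted p of at most 0.05 and a bar at each median. The detoxification list holds the largest rises with INT-787, and its median is 0.21 with INT-787 and -0.071 with OCA.

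Lists of glutathione use and NADPH supply held more falls than rises. Of 15 genes of glutathione synthesis and use, INT-787 changed 6 (40%, 1 higher and 5 lower) and OCA 3 (20%), all lower, against 19.6% and 6.6% of all tested genes. Gpx1, the main cytosolic glutathione peroxidase, was higher with INT-787 (0.36), while Gpx8 (-0.75), Gpx7 (-0.59), and Chac1 (-0.91), which breaks glutathione down, were lower. Gpx4, which repairs lipid peroxides in membranes, was lower with OCA (-0.55) and higher with INT-787 than with OCA (0.40). Of 7 tested NADPH sources 3 fell with each drug (42.9%), where 9.48% of all tested genes fell with INT-787 and 2.45% with OCA, and Me1, the malic enzyme, fell by 0.64 with INT-787 and by 1.03 with OCA, and Taldo1 by 0.29 and 0.33. The third was G6pdx with INT-787 (-0.45) and Idh2 with OCA (-0.52), and Idh2 was higher with INT-787 than with OCA (0.35).

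With INT-787 the next 3 lists were changed in 15.4%, 20%, and 14.3% of their genes, near or below the 19.6% of all tested genes. With OCA the shares were 0%, 0%, and 28.6%, where 6.6% of all tested genes were called and 2.45% were lower. Of 13 other thioredoxin and peroxiredoxin genes, Prdx1 (-0.47) and Prdx3 (-0.35) fell with INT-787 and none passed with OCA in edgeR, where 3 had an unadjusted p under 0.05 and DESeq2 called 1. Prdx1 was also lower with INT-787 than with OCA (-0.30). Of 10 further scavenger and methionine repair genes, Msrb3 (-0.51) and Pon3 (-0.24) fell with INT-787. None of them passed with OCA in edgeR or DESeq2, and 2 had an unadjusted p under 0.05. Of 7 haem and iron genes, the haem transporter Slc48a1 fell with INT-787 (-0.41) and OCA (-0.31), and biliverdin reductase Blvrb with OCA (-0.48).

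Genes whose products make superoxide or hydrogen peroxide were changed in 8 of 10 cases by INT-787, 2 higher and 6 lower, and in 3 by OCA, 2 higher and 1 lower, against 19.6% and 6.6% of all tested genes. The phagocyte NADPH oxidase genes Cyba (-0.56), Ncf1 (-0.45), Ncf4 (-0.66), and Rac2 (-0.60) fell with INT-787, whereas Cybb, the catalytic subunit, did not pass (-0.33, adjusted p = 0.13), and Cyba was also lower with INT-787 than with OCA (-0.55). The macrophage sums given above were lower in the same group, and their part in this was not tested. Nox4, an oxidase outside phagocytes, rose with INT-787 (0.73) and OCA (0.43), and xanthine dehydrogenase Xdh with INT-787 (0.77) and OCA (0.59). Of 19 peroxisome genes INT-787 changed 5 (26.3%, against 19.6% of all tested genes), and OCA 3 (15.8%, against 6.6%). The peroxisome assembly genes Pex7 (0.24), Pex16 (0.34), and Pex19 (0.24) rose with INT-787, while Acaa1b (-0.63 with INT-787, -1.12 with OCA) and Pex11a (-0.59, -0.89) fell with both drugs and Acaa1a with OCA (-0.38). Pex19 (0.26) and Acaa1b (0.49) were higher with INT-787 than with OCA.

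Whether the 10 genes rose and fell together from mouse to mouse was examined with group means removed. Of 45 pairs 2 passed by Pearson's r (two-sided permutation test within groups, 100000 resamples, Benjamini-Hochberg over 45 pairs), and none passed by Spearman's rho, with 8 pairs at an unadjusted p under 0.05 by each measure. Gclc and Srxn1 had r = 0.66 (permutation p = 0.00015, adjusted 0.00675), with r of 0.59 in vehicle, 0.67 in OCA, and 0.77 in INT-787 mice, and rho = 0.60 (permutation p = 0.0014, adjusted 0.063). Without the 2 mice farthest from the median r was 0.55. Keap1 and Gclm had r = -0.59 (permutation p = 0.0014, adjusted 0.0315) and rho = -0.49 (permutation p = 0.012, adjusted 0.14), with r of -0.79, -0.45, and -0.43 in the vehicle, OCA, and INT-787 groups and -0.47 without the 2 farthest mice. Without vehicle replicates 5 and 6 this second relation was -0.48 and only 1 of the 45 pairs passed. Nfe2l2 passed with none of the other 9 genes, its highest r being 0.36 with Txnrd1 (permutation p = 0.079, adjusted 0.26, rho = 0.24).

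**Figure D5:**
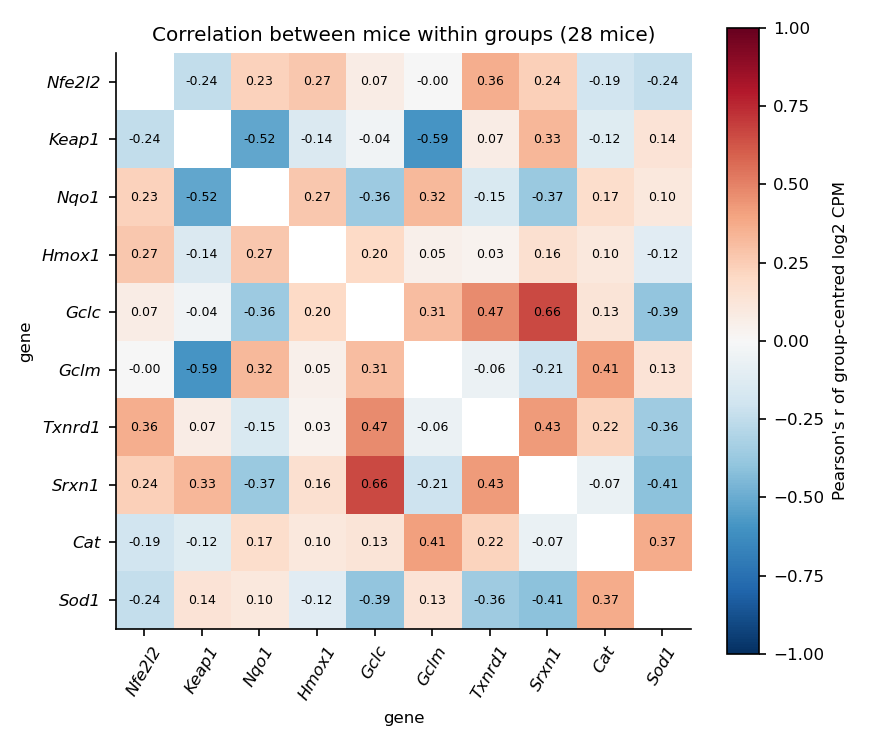
Pearson's r between each pair of genes (rows and columns) over 28 mice, from log2 CPM with group means removed, on a colour scale from -1 to 1. The highest value is 0.66 for Gclc with Srxn1 and the lowest -0.59 for Keap1 with Gclm.

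Among all tested genes the closest patterns to each of the 10 were looked up by the same r, as a description over 28 mice. All genes of a mouse come from the same library and so share its depth and composition, which differed between mice. Gclc ran closest to the manganese transporter Slc30a10 (0.88), and then to Cldn1 and Ugt2b35 (both 0.85). Gclm ran closest to the glucuronosyltransferases Ugt2b36 (0.87) and Ugt2b5 (0.85), and to Mospd2 (0.80). Srxn1 ran closest to fatty acid synthase Fasn (0.82), 2900026A02Rik, and Ly6d (both 0.79). Hmox1 ran closest to the leukocyte genes Rac2 (0.72), Cfp (0.71), and Lrrc25 (0.71).

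The nearest to Nqo1 were Sptssa (0.81), Ss18l2 (0.76), and Acot13 (0.75). Those of Cat were Dhdh (0.81), Aldh8a1 (0.80), and Ido2 (0.79), and those of Txnrd1 were Atp8b1 (0.83), Zfp652 (0.81), and Fam210a (0.79). Sod1 had the highest values, with Cwc15 (0.94), Fkbp2, and Ddrgk1 (both 0.92). Keap1 was nearest to Dnm2 (0.83), Nfic, and Mark4 (both 0.81), and Nfe2l2 to Ddias (0.70), Gas2l3 (0.66), and Rbl1 (0.65). None of the 10 was among the 3 nearest genes of another.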

How the data were processed

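The authors prepared stranded polyA libraries from liver, aligned reads to GRCm38 (Ensembl 89) with STAR 2.5.2a, and deposited raw counts per Ensembl gene for 28 mice. The counting program and its use of strand are not given in the sources used here. Groups came from the labels. Annotation was from GENCODE M21 and promoters from RefSeq. Counts were filtered with filterByExpr (12580 genes), scaled by TMM, and compared by the quasi-likelihood test of edgeR 4.0.16 (R 4.3.3), with the 3 groups in 1 model and no covariates. Every p was adjusted (Benjamini-Hochberg) across the 12580 genes and called at 0.05 or below. Where a gene's adjusted p names no tool, it is from this test. Intervals are approximate 95% intervals from the SE with 25 degrees of freedom. Scripts were tested on simulated data. Alternatives were DESeq2 1.42.0, other normalizations, no filter, only 2 groups, the replicate number or number set as a factor, a threshold of 0.01, and mice left out. The 10 genes and the lists were chosen with earlier results of these data known. Named list genes were, per comparison, the 15 with the largest change among those called with a mean of at least 1 CPM, and others of each list were named after their values were seen, and 2 genes that this rule selects are not reported here but stay in all counts. Log2 CPM used a prior count of 2.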

Additional observations from a re-analysis of the deposited data

Results flagged for a closer look

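Among 37 genes in 3 groups each (111 sets of values), 14 single values stood apart from their group by Dixon's ratio at the 95% level. Chance flags about 1 in 20 sets, but several flags fell on the same mouse, so they are not independent. Of the 10 genes, Nqo1 in vehicle replicate 10 was at 27.6 CPM (next 21.9), Hmox1 in the same mouse at 51.3 CPM (next 41.2), and Srxn1 in vehicle replicate 4 at 98.8 CPM (next 126). Without vehicle replicate 10 the fall of Hmox1 with INT-787 and the rise of Nqo1 with INT-787 still passed, as did the falls of Srxn1 without vehicle replicate 4, while the fall of Hmox1 with OCA did not (adjusted p = 0.058 by edgeR).

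The other flags were of list genes. Vehicle replicate 10 was high for Gstm1 (6568 CPM) and Gstm4 (155 CPM). OCA replicate 8 was high for Cyba (51.5 CPM), Gpx8 (5.09 CPM), Ncf4 (7.94 CPM), and Ptgr1 (18.1 CPM). Nox4 was low in INT-787 replicate 4 (38.8 CPM). Gsta1 was high in INT-787 replicate 3 (9.91 CPM), Gsta4 in OCA replicate 9 (406 CPM), Mgst1 in OCA replicate 3 (3933 CPM), and Pex11a in vehicle replicate 4 (249.7 CPM).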

How the results depend on the processing

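The counts of the 10 genes called with INT-787 (4) and OCA (3) stayed within 1.5 times under every alternative run, at 4 to 5 and 2 to 3 when single mice were left out. Between the drugs the count was 1 with DESeq2's size factors, 2 with DESeq2, 1 with the replicate block, 1 with number sets, and 0 to 1 without single mice. Counts of list genes were 20, 12, and 5 for INT-787, OCA, and the direct comparison at an adjusted p of 0.01, and 32 to 43, 19 to 27, and 9 to 18 without single mice. Co-varying pairs numbered 1 without vehicle replicates 5 and 6. Replicate numbers did not pair the mice (r over 0.1 in 11 of 27 pairs, from -0.24 to 0.43). For mice of the same number set, r was over 0.1 in 13 of 25 pairs (median 0.11, from -0.20 to 0.43). With the replicate block Nqo1 passed between the drugs (adjusted p = 0.014) and Hmox1 with OCA did not (adjusted p = 0.072).

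Signs turned only for genes near 0 that were not called. Keap1 with INT-787 was -0.0032 with DESeq2's size factors, -0.055 with upper quartiles, -0.0035 with DESeq2, -0.0106 with the block, and -0.032 without vehicle replicates 5 and 6. Nfe2l2 with INT-787 was 0.00029 without the filter and 0.030 without those mice. Cat with OCA was -0.00539 with upper quartiles, -0.040 with number sets, and -0.00439 without those mice, and Nqo1 with OCA was -0.0109 with number sets. Without single mice the ranges were -0.034 to 0.036 (Keap1, INT-787), -0.031 to 0.016 (Nfe2l2, INT-787), -0.034 to 0.092 (Cat, OCA), and, between the drugs, -0.098 to 0.049 (Gclc) and -0.086 to 0.062 (Hmox1). The causes were not tested.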
